A study of Arabidopsis thaliana with 12 samples.

Results

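The expression of 4 genes that regulate transcription under heat and water stress was examined in leaves and roots of Arabidopsis seedlings grown in space. The genes were HSFA2 (AT2G26150), HSFA6B (AT3G22830), MBF1C (AT3G24500) and DREB2A (AT5G05410). They were chosen by name for their known roles, with earlier results of these data known. The choice was from the 656 genes that the leaf and root tables of the study list. All 4 were listed for leaves, among 608 genes, and DREB2A was also among the 65 genes listed for roots. Both tables hold genes that the authors had called between spaceflight and ground control in that organ. The leaf tests below, and the root test of DREB2A, were therefore made on genes already selected by the same contrast and are not independent evidence. The authors' root contrast had no part in the listing of HSFA2, HSFA6B and MBF1C. HSFA6B, however, was too low in leaf for the authors' gate on low values, CPM above 5 in at least 3 libraries. It passed through root libraries, which were higher on average in ground control (7.80 FPKM) than in spaceflight (4.03 FPKM). Its root change is therefore not free of selection.

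Seedlings of the WS ecotype, 11 days old, were grown on Phytagel plates under constant LED light, either in the Veggie unit of the International Space Station (spaceflight) or in a matching ground unit at Kennedy Space Center whose chamber followed the station's temperature, carbon dioxide and light (ground control). Each treatment had 3 plates, preserved in RNAlater and frozen, and 3 plants of a plate were pooled and dissected into leaf and root for RNA-seq. This gave 12 libraries in 4 groups of 3, the leaves and the roots of each treatment. No mutant, transgene or other treatment was used, and the ground control differed from spaceflight in everything that differs between the station and the ground. For ground control leaf and spaceflight root libraries the material label names the other organ. The organ was taken from the titles, and it fits the markers: the summed FPKM of 3 light-harvesting genes (LHCB1.2, LHCB2.2 and LHCB4.2, listed of 22 leaf markers) was 13678 to 17828 in ground control leaf and 6221 to 14152 in spaceflight leaf, against 102 to 111 in ground control root and 144 to 344 in spaceflight root. Spaceflight leaf replicate 1 stood apart at 6221, the other two spaceflight leaves being at 13484 and 14152. BGLU21, the listed gene of 20 root markers, was at 521 to 968 FPKM in roots and 0.34 to 2.12 in leaves. The light-harvesting genes were listed on the root contrast and BGLU21 on the leaf contrast. Their differences between treatments in those organs carry that selection. Values are FPKM, fragments scaled to transcript length and library total, which can be compared between genes. Read depth is unknown because counts were not used here, so the errors given are those between plates. A change in a bulk organ can come from RNA per cell or from the share of a cell type, and these cannot be told apart.

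Plants answer heat through heat stress transcription factors, which bind heat shock elements in promoters and switch on chaperone genes. The constitutive HSFA1 factors act first and induce HSFA2, which keeps chaperone expression high during long or repeated heat, together with MBF1C, a transcriptional co-activator required for thermotolerance, and DREB2A. DREB2A binds dehydration responsive elements in drought, salt and heat genes and is held down at the protein level by ubiquitin ligases, so its transcript is one part of its activity. HSFA6B is a class A heat stress factor whose transcript is raised by abscisic acid, salt and drought.

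The DNA before the 3 gene starts that have intergenic sequence there is shown because it carries, or lacks, the elements through which such factors act. The reference is TAIR10.1, the Col-0 genome, not that of WS, and positions count back from -1, the base before the annotated gene start. Capitals mark matches, on either strand, to a heat shock element of 3 units (GAANNTTCNNGAA or TTCNNGAANNTTC) or of 2 units (GAANNTTC or TTCNNGAA) and to the core of the abscisic acid responsive element (ACGTG or CACGT). All genes are on the plus strand.
HSFA2, chr2:11135466-11135623: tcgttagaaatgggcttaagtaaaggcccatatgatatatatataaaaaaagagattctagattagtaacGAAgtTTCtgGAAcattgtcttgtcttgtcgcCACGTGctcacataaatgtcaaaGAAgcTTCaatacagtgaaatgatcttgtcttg
DREB2A, chr5:1601955-1602204: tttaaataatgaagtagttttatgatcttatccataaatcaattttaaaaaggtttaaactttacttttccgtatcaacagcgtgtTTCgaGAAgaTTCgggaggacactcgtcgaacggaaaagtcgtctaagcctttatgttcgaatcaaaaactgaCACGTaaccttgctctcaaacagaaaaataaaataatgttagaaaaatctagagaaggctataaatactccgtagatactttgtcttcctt
HSFA6B, chr3:8078539-8078788: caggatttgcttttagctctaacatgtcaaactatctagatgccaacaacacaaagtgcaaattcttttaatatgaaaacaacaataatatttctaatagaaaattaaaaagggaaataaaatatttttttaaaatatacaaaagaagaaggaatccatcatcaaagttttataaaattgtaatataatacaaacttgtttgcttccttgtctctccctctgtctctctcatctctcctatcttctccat

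HSFA2 had a 3-unit heat shock element at -88 to -76 and a further 2-unit match at -33 to -26. DREB2A had a 3-unit element at -164 to -152. Of 27443 windows of 250 bases before the gene starts of the genome, 0.386% held a 3-unit element and 16.1% a 2-unit match, which every 3-unit element contains. The abscisic acid core lay at -56 to -51 in HSFA2, on both strands, and at -91 to -87 in DREB2A, and was present in 22.9% of the windows. No window of the 4 genes held the dehydration responsive core (CCGAC or GTCGG), found in 3285 of these windows. HSFA6B had none of these letters, and nor did MBF1C, whose window is not printed because it lies inside the neighbouring gene MSH7 on the other strand. A match is a description of the sequence and no evidence of binding.

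The genes lie at chr2:11135624-11137792 (HSFA2), chr3:8078789-8081059 (HSFA6B), chr3:8918267-8919683 (MBF1C) and chr5:1602205-1604112 (DREB2A). HSFA2 has 4 annotated transcripts, and a 31-base exon at chr2:11136246-11136276 belongs to 2 of them. The gene-level values do not separate these transcripts. MBF1C is overlapped by MSH7 (AT3G24495), by an antisense RNA (AT3G04685) and by ALDH2C4 (AT3G24503), and the 3′ end of DREB2A by AT5G05420 on the other strand. The study's methods name a strand-specific library kit and the extraction text of the labels one that does not keep strand, so part of the MBF1C and DREB2A values may belong to these neighbours. HSFA6B overlapped no annotated gene.

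In leaves, HSFA2 and MBF1C transcripts fell in spaceflight, HSFA2 from 28.3 to 1.35 FPKM and MBF1C from 125 to 38.6 FPKM. DREB2A averaged 6.0 FPKM on the ground and 2.38 in space, and HSFA6B 0.330 and 1.04 FPKM, and neither change passed both thresholds of the test. A gene is called here where limma gives an adjusted p under 0.05 on log2(FPKM + 1) and the change there is 2-fold or more. The added 1 shrinks the change of genes with few FPKM. The 3 genes HSFA2, MBF1C and DREB2A were lower in every spaceflight leaf library than in every ground control leaf library, and HSFA6B was higher. Of all 608 genes listed for leaf, 23.7% were lower and 68.1% higher in this way, and 16.4% were called lower and 58.1% higher. The listing used this contrast, so nothing is read from the count of 2 called of 4. Without spaceflight leaf replicate 1, the library low in light-harvesting transcripts, the leaf changes were -3.57 for HSFA2, -1.72 for MBF1C, -1.07 for DREB2A and 0.51 for HSFA6B.

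**Figure D1:**
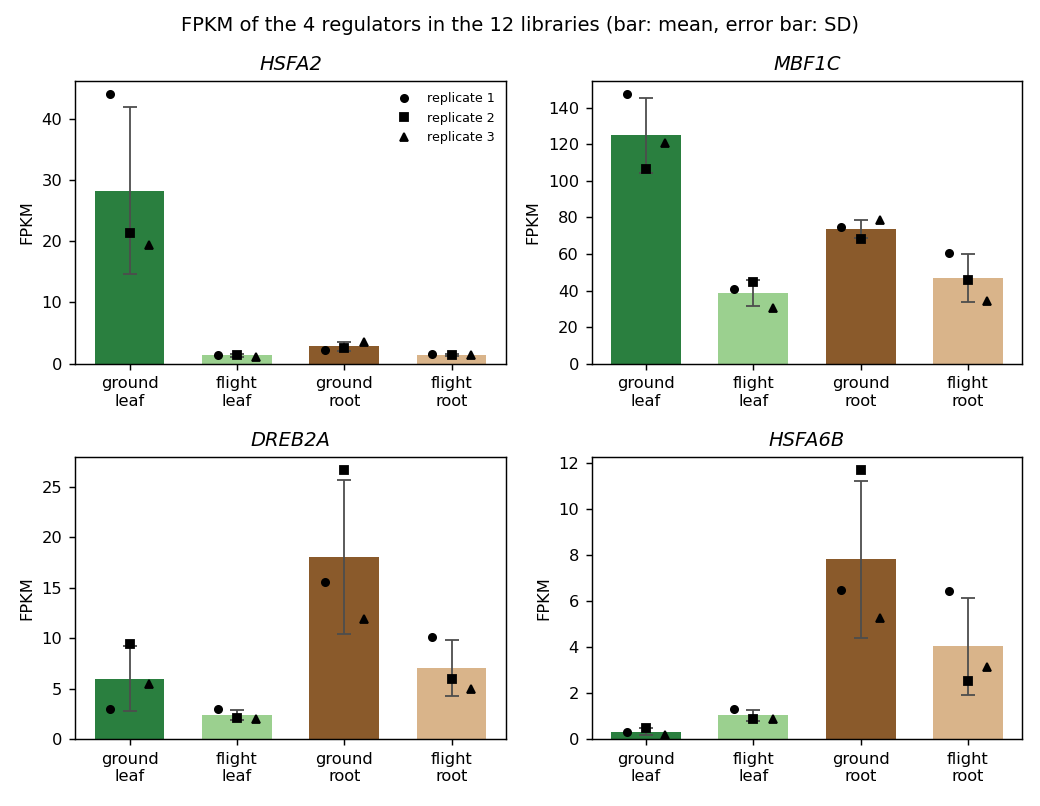
FPKM (y axis, linear, from 0, a separate scale for each gene) of HSFA2, HSFA6B, MBF1C and DREB2A in the 4 groups of 3 libraries. Bars are group means, error bars SDs and points single libraries; HSFA2 stands high in ground control leaf (19.5 to 44.0) against 1.15 to 3.62 in all other libraries, while HSFA6B is highest in roots.

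HSFA2, the heat stress factor that prolongs chaperone expression, was at 44.0, 21.4 and 19.5 FPKM in ground control leaf replicates 1 to 3. It was at 1.44, 1.47 and 1.15 FPKM in the spaceflight leaves. The lowest ground control library thus stood far above all spaceflight libraries, and the ground control plates differed among themselves, replicate 1 being higher than the other two. The ratio of the mean FPKM was 20.9 in favour of the ground control, and the limma change was -3.54 (SE 0.34, 95% interval -4.28 to -2.81, adjusted p = 2.37e-05). Among the 608 leaf changes it ranked 2 from the lowest. Leaving out any 1 leaf library moved the change between -3.75 and -3.19 and kept the call.

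MBF1C, the thermotolerance co-activator, had the highest level of the 4 genes in every group. Ground control leaves held 147, 106 and 121 FPKM and spaceflight leaves 40.7, 44.6 and 30.6 FPKM. The groups were well separated, at a mean ratio of 3.23, and the limma change was -1.67 (SE 0.29, 95% interval -2.31 to -1.03, adjusted p = 0.000638). It ranked 30 of 608 from the lowest.

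DREB2A, the drought and heat factor, was at 3.05, 9.46 and 5.49 FPKM in ground control leaves and at 2.96, 2.13 and 2.05 FPKM in spaceflight leaves. The groups did not overlap, but ground control replicate 1 was almost as low as spaceflight replicate 1. The change was -0.95 (SE 0.36, 95% interval -1.73 to -0.18, limma adjusted p = 0.0229), short of 2-fold on the log2(FPKM + 1) scale, although the ratio of the mean FPKM was 2.52. Here single libraries decided the call. The thresholds were met when replicate 1 was left out of the ground control leaves (-1.30) or of the spaceflight leaves (-1.07), and without ground control leaf replicate 2 the change was -0.61 (limma adjusted p = 0.119).

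HSFA6B, the abscisic acid-responsive heat stress factor, had a low level in leaves and ran the other way. It was at 0.33, 0.48 and 0.18 FPKM in ground control leaves and at 1.33, 0.90 and 0.88 FPKM in spaceflight leaves, and the groups did not overlap. The mean FPKM was 3.14 times as high in spaceflight, while the change on the log2(FPKM + 1) scale was 0.61 (SE 0.28, 95% interval 0.01 to 1.22, limma adjusted p = 0.0509) and was not called. The pseudocount matters at this level: with 0.1 in place of 1 the change was 1.44 and was called (limma adjusted p = 0.00491). The authors' mean CPM of HSFA6B in leaves was 0.446 on the ground and 1.34 in space, below their gate of CPM above 5 in at least 3 libraries, which the gene therefore passed through other libraries than those of leaf. BGLU21, the root marker, had a leaf change of 0.62 that was not called (limma adjusted p = 0.0656). It was at 0.055% of its root level in ground control leaves and 0.219% in spaceflight leaves, against 4.23% and 25.7% for HSFA6B. BGLU21 was itself listed on the leaf contrast and the other root markers are unknown, so its rise between treatments cannot gauge root RNA in leaves. The part of root RNA in the HSFA6B leaf values was not tested.

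In roots, all 4 genes had a lower mean in spaceflight, by 1.58 to 2.56 times in FPKM. DREB2A among them was listed on the root contrast, and 266 of the 608 genes listed for leaf had a root change below 0. DREB2A fell, from 18.05 to 7.04 FPKM, when tested among the genes listed for root. The changes of HSFA2, MBF1C and HSFA6B were not called. Of the 608 genes listed for leaf, 0% were called lower and 0.164% (1 gene) higher in root. DREB2A was selected on the root contrast and is left out of the counts that follow. Of the 3 other genes, HSFA2 and MBF1C were lower at an unadjusted limma p under 0.05, as were 10.0% of the 608. These 2 were also lower in every spaceflight root library than in every ground control root library, as were 11.3% of the 608, and HSFA6B was neither. The 608 root changes had a median of 0.04, and from the lowest HSFA6B ranked 10, MBF1C 13 and HSFA2 17. HSFA6B had to be high in root libraries to pass the authors' gate, so its rank carries that selection.

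**Figure D2:**
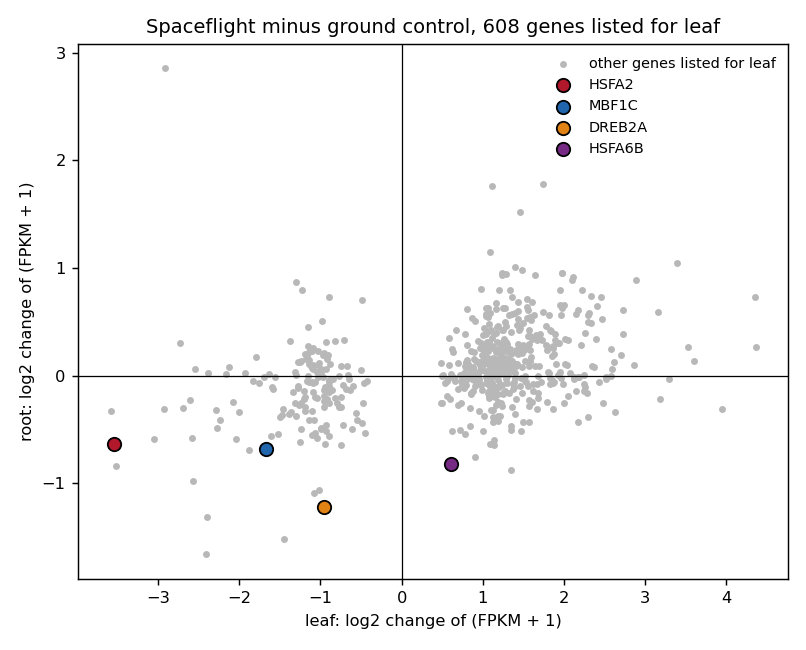
Change of log2(FPKM + 1), spaceflight minus ground control, in leaf (x axis) and root (y axis) of the 608 genes listed for leaf, grey, with the 4 regulators in colour. The 4 regulators lie at -0.64 to -1.22 on the root axis and spread from -3.54 (HSFA2) to 0.61 (HSFA6B) on the leaf axis. The leaf axis is the contrast on which the genes were listed, and DREB2A (-1.22 in root) was listed on the root contrast too.

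DREB2A was at 15.6, 26.6 and 11.9 FPKM in ground control roots. In spaceflight roots it was at 10.2, 5.95 and 5.01 FPKM. Every spaceflight library was lower, with ground control replicate 2 standing above the other ground control plates. The change was -1.22 (SE 0.36, 95% interval -2.04 to -0.40, limma adjusted p = 0.0161 over the 65 genes listed for root, of which 27.7% were called lower). The call rested on that small table, since the adjusted p was 0.0774 over the 656 genes of both tables and 0.0925 over the 608 genes listed for leaf. It was also lost without ground control root replicate 2 (-0.92) or spaceflight root replicate 2 (-1.14, limma adjusted p = 0.0577).

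HSFA2 was low in roots, at 2.27, 2.60 and 3.62 FPKM on the ground and 1.61, 1.35 and 1.36 FPKM in space. The groups did not overlap, and the mean ground level was 1.97 times the spaceflight level. The change of -0.64 (SE 0.15, 95% interval -0.99 to -0.28) had a limma adjusted p of 0.062 and was short of 2-fold.

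MBF1C roots held 74.6, 68.3 and 78.3 FPKM on the ground and 60.3, 45.5 and 34.4 FPKM in space. The ground control plates were close together and the spaceflight plates spread, without overlap. The change was -0.68 (SE 0.20, 95% interval -1.17 to -0.19, limma adjusted p = 0.0993).

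HSFA6B roots held 6.48, 11.7 and 5.26 FPKM on the ground and 6.44, 2.54 and 3.12 FPKM in space. Here the groups overlapped, since spaceflight replicate 1 was at the level of ground control replicate 1. The change was -0.82 (SE 0.36, 95% interval -1.69 to 0.06, limma adjusted p = 0.207), and an increase was not outside its interval. In spaceflight roots the 3 light-harvesting genes summed to 2.10% of their spaceflight leaf level, against 0.674% on the ground. These genes were listed on the root contrast and the other leaf markers are unknown, so the rise cannot gauge leaf RNA in roots. The part of leaf RNA in the root values was not tested.

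**Figure D3:**
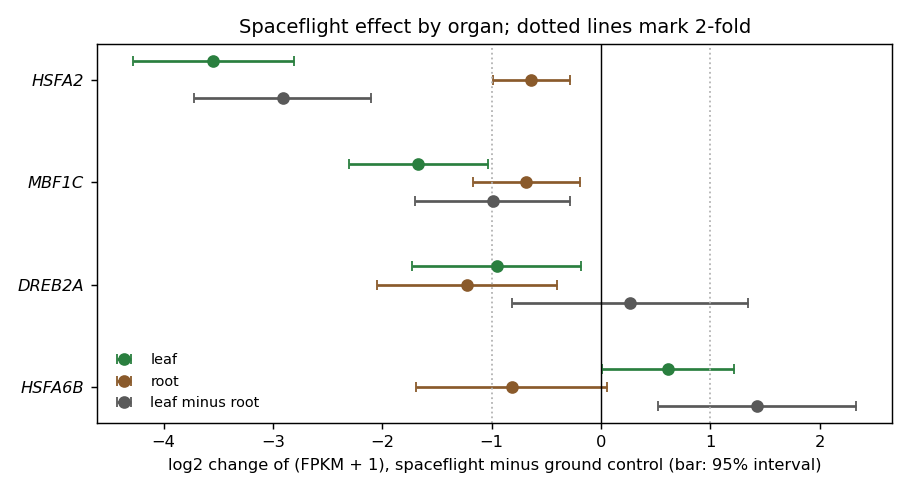
Change of log2(FPKM + 1), spaceflight minus ground control (x axis), of the 4 genes in leaf and in root, and of the leaf minus root difference, with 95% intervals from limma as bars and dotted lines at 2-fold. The leaf and root intervals of HSFA2 lie apart (-4.28 to -2.81 and -0.99 to -0.28), and those of DREB2A overlap (-1.73 to -0.18 and -2.04 to -0.40).

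Whether leaf and root responded differently was tested as the leaf change minus the root change in 1 fit over the 12 libraries. Leaf and root of a treatment came from the same plates, and the fit treats the libraries as independent. HSFA2 differed most, at -2.91 (SE 0.38, 95% interval -3.72 to -2.10, limma adjusted p = 0.00016), the leaf falling further. HSFA6B differed in the opposite sense, at 1.43 (SE 0.42, 95% interval 0.53 to 2.34, limma adjusted p = 0.0109), with a positive change in leaf and a negative one in root, neither of them called alone. Of the 608 genes, 14.3% were called lower and 44.2% higher in this difference, with a median of 0.93. The leaf change enters this difference and was used for listing, so these shares carry that selection. The difference of HSFA6B also carries the gate that the gene passed through its root values.

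MBF1C showed a difference of -0.99 (SE 0.33, 95% interval -1.70 to -0.28, limma adjusted p = 0.0173), just short of 2-fold, and leaving out single libraries carried it to either side of that threshold (-1.19 to -0.79). DREB2A showed a difference of 0.27 (SE 0.50, 95% interval -0.81 to 1.35, limma adjusted p = 0.615). The interval is wide enough to hold a 2-fold difference, so equal responses of the organs were not shown.

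The organ levels of the 4 genes were ordered differently. HSFA2 and MBF1C were highest in ground control leaf, followed by ground control root, spaceflight root and spaceflight leaf, and in both the last pair of groups overlapped. DREB2A and HSFA6B were highest in ground control root. DREB2A followed with spaceflight root and ground control leaf, which overlapped, and then spaceflight leaf. HSFA6B followed with spaceflight root, overlapping the ground control root, then spaceflight leaf and ground control leaf, which stood apart from each other.

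On the ground, HSFA2 was 9.99 times as high in leaf as in root by mean FPKM (limma change 2.85, SE 0.27, adjusted p = 1.48e-07). HSFA6B was 23.6 times as high in root (-2.67 for leaf minus root, SE 0.30, adjusted p = 1.07e-06 by limma), and DREB2A 3.01 times (-1.48, SE 0.35, limma adjusted p = 0.00151). MBF1C was 1.69 times as high in leaf (0.74, SE 0.23, limma adjusted p = 0.0092), under the 2-fold threshold. HSFA6B passed the authors' gate on low values through its root libraries, so its tests of root against leaf, here and in spaceflight, were made on a gene that had to be high in root. The authors' mean CPM of HSFA2 was 34.2 in ground control leaf and 1.57 in spaceflight leaf, and its root FPKM was 3.62 at most. That of DREB2A was 7.60 and 2.89 in leaf, against 18.3 and 7.01 in root. HSFA2 thus likely passed through ground control leaf and DREB2A partly through root, though CPM of single libraries is unknown. Their organ tests carry that selection. Among the 608 genes, 22.2% were called higher in leaf and 45.7% higher in root.

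In spaceflight the leaf and root levels of HSFA2 were within the spread of the plates, with a leaf minus root change of -0.05 (95% interval -0.63 to 0.52, limma adjusted p = 0.857). MBF1C was likewise not separated by organ (-0.25, 95% interval -0.75 to 0.25, limma adjusted p = 0.332). DREB2A stayed higher in root, by 2.96 times in mean FPKM (-1.21, SE 0.35, limma adjusted p = 0.00613), and HSFA6B by 3.89 times (-1.23, SE 0.30, limma adjusted p = 0.00161). Of the 608 genes, 32.6% were called higher in leaf and 33.6% in root. The HSFA6B and DREB2A calls were lost without spaceflight root replicate 1, the highest spaceflight root for both genes, at -0.91 and -0.95.

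The other genes of the heat response were taken from lists of families, targets and outputs. Of 21 heat stress factors, HSFA2 and HSFA6B were listed for leaf and none for root, and of 3 MBF1 co-activators MBF1C alone was listed. Of 14 DREB2 and DREB1/CBF genes DREB2A alone was listed, in both organs. Neither of the 2 ubiquitin ligases that degrade DREB2A was listed, and none of 10 drought and cold genes with the DREB element. A gene that is not listed was not analysed here, and its level is unknown.

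Small heat shock proteins, chaperones that bind unfolding proteins and are targets of HSFA2, fell in leaf in the 4 listed cases of a list of 16, with a median change of -2.83 against 1.09 over all 608 genes, of which 16.4% were called lower. These genes, too, were listed on the leaf contrast. HSP17.8 (AT1G07400) fell from 76.3 to 4.96 FPKM (-3.59), HSP23.5 (AT5G51440) from 42.1 to 4.57 FPKM (-2.92), HSP17.6B (AT2G29500) from 35.5 to 4.26 FPKM (-2.73) and HSP17.6A (AT1G59860) from 32.0 to 5.72 FPKM (-2.28). In root none of them was called, where 0% of the 608 genes were called lower and 0.164% higher. HSP17.8, HSP23.5 and HSP17.6A were lower in every spaceflight root library than in every ground control root library, as were 11.3% of the 608. HSP17.6B overlapped. Their root median was -0.31, and HSP17.6B had a positive root change of 0.31. The list does not hold 2 further genes of the HSP20 type in the leaf table, HSP17.4B (AT1G54050) and HSP18.5 (AT2G19310), which were added after their values were seen. They also fell in leaf, by changes of -3.52 and -1.01, and were not called in root (-0.84 and 0.12). Over all 6 the median was -2.83 in leaf and -0.31 in root.

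Of 11 other heat-induced chaperones and targets, 8 were listed for leaf, again on the leaf contrast, and 6 of them fell there, with a median of -1.93, where 16.4% of the 608 genes were called lower. MED37C (AT3G12580), the annotated HSP70, fell from 275 to 31.4 FPKM (-3.05), and HSP81-1 (AT5G52640), an HSP90, from 79.6 to 10.5 FPKM (-2.69). CLPB1 (AT1G74310), the HSP101 disaggregase, fell from 45.0 to 6.08 FPKM (-2.59), and FKBP65 (AT5G48570), a peptidyl-prolyl isomerase, from 38.8 to 5.69 FPKM (-2.54). The exceptions, BAG6 and FKBP62, had changes of -0.89 and -0.92, short of 2-fold. In root none was called, and the median was -0.15, where 0% of the 608 genes were called lower and 0.164% higher. MED37C, CLPB1 and BAG6 were lower in every spaceflight root library than in every ground control root library, as were 11.3% of the 608. The rest of the 8 overlapped. MED37C and CLPB1 had root changes of -0.59 and -0.58, and FKBP65 one of 0.06.

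The listed abscisic acid genes did not move together in leaf. Of 10, 3 were listed for leaf: NAC072 (RD26, AT4G27410), a drought-induced NAC factor, rose from 4.93 to 12.1 FPKM (1.06), PXG3 (RD20, AT2G33380), a dehydration-induced caleosin, fell from 17.1 to 6.63 FPKM (-1.20), and NCED3 (AT3G14440), the rate-limiting enzyme of abscisic acid synthesis, was at 1.49 and 0.623 FPKM (-0.56, limma adjusted p = 0.0985). Of the 608 genes, 58.1% were called higher and 16.4% lower in leaf. None of the 3 was called in root, where 0% of the 608 were called lower and 0.164% higher. The genes of the 10 that were not listed are unknown. As for the regulators, the listing itself used the leaf contrast.

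**Figure D4:**
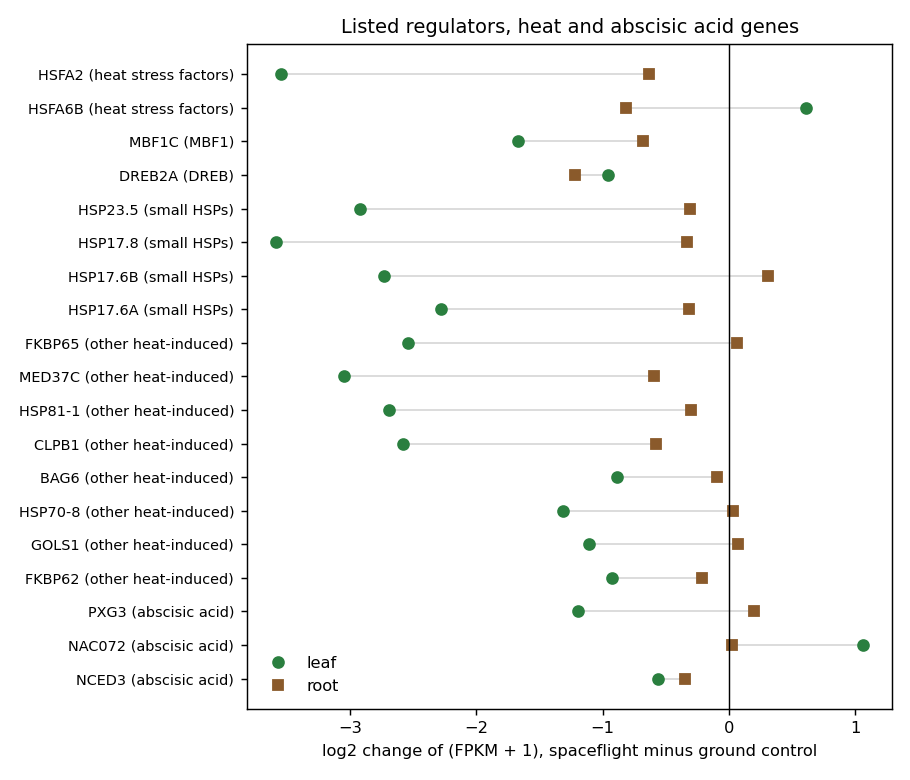
Change of log2(FPKM + 1), spaceflight minus ground control (x axis), in leaf (circles) and root (squares) for each listed regulator, heat and abscisic acid gene (y axis). The 4 small heat shock proteins of the list lie at -3.59 to -2.28 in leaf and at -0.33 to 0.31 in root, and NAC072 at 1.06 in leaf.

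The genes whose pattern was most like that of each regulator were found by Pearson's r of log2(FPKM + 1) over the 12 libraries, among the 608 genes listed for leaf. The 12 points fall into 4 groups and share their libraries, so r describes group means as much as plates. For HSFA2 the 5 highest were HSP17.4B (0.98), HSP17.8 (0.97), Fes1A (0.96), ATCP1 (0.95) and EGY3 (0.95), of which HSP17.4B and HSP17.8 are of the HSP20 type and Fes1A is an HSP70 partner. HSP17.4B was at 38.8 and 2.32 FPKM in ground control and spaceflight leaves and at 3.24 and 1.40 FPKM in the roots, close to the HSFA2 series of 28.3, 1.35, 2.83 and 1.44. MBF1C ranked 16 for HSFA2, at 0.90.

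For MBF1C the 5 were the DnaJ protein AT3G14200 (0.97), the B-box gene AT5G54470 (0.96), CLPB1 (0.95), MED37C (0.95) and the DnaJ protein AT2G20560 (0.94). AT3G14200 was at 46.9 FPKM in ground control leaf, 12.4 in spaceflight leaf, 25.4 in ground control root and 15.5 in spaceflight root. These genes thus had the order of MBF1C, with the ground level above the spaceflight level in both organs.

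For DREB2A they were NCED3 (0.90), AT1G76240 (0.86), GI (0.85), AT5G22140 (0.84) and PIP2-3 (0.84), where GI is the circadian clock protein GIGANTEA and PIP2-3 an aquaporin. For HSFA6B they were AT4G20000 (0.96), AT2G23910 (0.95), NAC100 (0.94), PER21 (0.94) and ATLP-3 (0.94), all with higher mean FPKM in roots than in leaves. PER21, a peroxidase, was at 12.1 and 27.3 FPKM in ground control and spaceflight leaves and at 156 and 126 FPKM in the roots. Among the regulators, HSFA6B and DREB2A had an r of 0.77, and HSFA6B and HSFA2 one of -0.55.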

How the data were processed

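RNA-seq was analysed in 12 libraries, 3 for each organ and treatment. The authors trimmed reads with Trimmomatic, mapped them with STAR to TAIR10 and quantified genes with RSEM. The sources used here do not give their versions. The deposited tables, 1 per organ, give the FPKM of the 12 libraries and the authors' mean CPM of each group for genes past their thresholds, after a gate of CPM above 5 in at least 3 libraries. No header names the unit of the library values. It was taken as FPKM because mean CPM divided by them increased with the length of the gene (Spearman's rho of 0.792 over 605 genes listed for leaf and 0.755 over 63 listed for root, ground control). Columns of the authors' fold changes and p-values were not used. Counts were not used, so depth per library is unknown.

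Changes of log2(FPKM + 1) were tested with limma 3.58.1 in R 4.3.3, without covariates, in the 6 libraries of an organ, or in all 12 with 4 group means for organ differences. Benjamini-Hochberg adjustment was over the 608 genes listed for leaf, and over the 65 listed for root for the root change of DREB2A. Genes with an adjusted p under 0.05 that changed 2-fold or more were called. The procedure was tested on simulated data without plate effects, at levels raised so that the pseudocount had little weight. That test does not cover genes with few FPKM. P-values measure the spread between plates of 1 experiment. No pair of libraries held identical values, and Pearson's r within groups was 0.944 to 0.992. Alternatives were a pseudocount of 0.1, a mean FPKM of at least 1, a replicate block, a prior variance that follows the mean level, a spread shared over 12 libraries, adjustment over both tables, and leaving out each library. A further alternative for the organ difference took leaf minus root of the same number within a treatment. Fitting DREB2A over the other table was added after seeing the data.

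The regulators are described in full. Of each gene list the up to 4 listed genes with the largest change are named, and for each regulator the 5 genes with the highest r. Other list members are named where they are exceptions. The members and lists were chosen with earlier results of these data known. Leaf and root of a treatment came from the same 3 plates and carry the same replicate numbers, though no label says that a number marks 1 plate. The main tests assumed no pairing of numbers. Those across organs treat the 12 libraries as independent, so their p-values ignore the shared plates. The ground control was started with a delay, on whose length the labels and the study's methods differ. The labels' extraction text also names root tips, where the methods name dissected roots. Promoter windows and gene positions are from TAIR10.1. Python 3.11.15, numpy 2.4.6, pandas 2.3.3, scipy 1.17.1 and matplotlib 3.10.9 were used.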

Additional observations from a re-analysis of the deposited data

Results flagged for a closer look

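For HSFA2 and HSFA6B the spaceflight effect differed between leaf and root in the test of the difference itself. The leaf change minus the root change was -2.91 for HSFA2, with all 3 spaceflight libraries below all 3 ground control libraries in both organs. It was 1.43 for HSFA6B, with all 3 spaceflight leaves above the ground control leaves and overlapping groups in root. Both genes were listed on the leaf contrast, which enters this difference, so neither result is independent evidence. Of the 608 genes listed for leaf, 14.3% were called lower and 44.2% higher in the difference. In leaf, 23.7% were lower and 68.1% higher without overlap, and in root 11.3% were lower. HSFA6B passed the authors' gate on low values through its root libraries, which were higher on average on the ground. HSFA2 likely passed it through its ground control leaves.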

How the results depend on the processing

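For the 20 results of the 4 regulators, 316 alternatives were computed, of which 296 kept direction and call, 11 gained a call, 6 lost one and 3 changed sign. With a pseudocount of 0.1, the leaf changes of HSFA6B (1.44) and DREB2A (-1.17) and the organ difference of MBF1C (-1.003) were called. The DREB2A root change of -1.22 was not called over both tables (adjusted p = 0.0774, limma) or over the leaf table (0.0925, chosen after seeing the data). Leaving out 1 library gave -1.30 to -0.61 for the DREB2A leaf change, -1.49 to -0.92 for its root change, -1.19 to -0.79 for the MBF1C organ difference, and -1.45 to -0.91 (HSFA6B) and -1.39 to -0.95 (DREB2A) for leaf minus root in spaceflight. The signs that turned were those of uncalled values: HSFA2 leaf minus root in spaceflight without spaceflight leaf replicate 3 (0.011, range -0.090 to 0.011) and the DREB2A organ difference without ground control root replicate 2 (-0.037) or ground control leaf replicate 1 (-0.073, range -0.073 to 0.61). The count of leaf-listed genes called in root was 1, and 12 with a mean FPKM of at least 1, 4 with a replicate block, 6 with a shared spread and 0 to 21 without single libraries. That of root-listed genes was 36, and 57 with a pseudocount of 0.1 and 18 to 41 without single libraries, the lowest without spaceflight root replicate 2. Causes were not tested. With the replicate block no call of the 4 regulators changed (HSFA2 leaf -3.54, adjusted p = 3.13e-07, limma). That block also ties a number across treatments, whose plates differ, so it cannot test pairing by plate. With leaf minus root taken by number within a treatment, no organ difference gained or lost a call. The limma adjusted p was then 0.000206 for HSFA2, 0.00486 for HSFA6B, 0.0181 for MBF1C and 0.484 for DREB2A. Leaf and root libraries of a number deviated together at r of 0.0778, 0.450 and 0.310 on the ground and 0.0385, 0.0863 and -0.0179 in space. Ground replicates 2 and 3 were most alike with their own number (highest r with another number -0.110 and 0.0356), and ground replicate 1 was not. In space this held for replicate 2 alone, narrowly (0.0813 with another number). Whether the numbers pair the samples by plate is not settled by these r. Unknown depth limits the precision of the low HSFA6B and HSFA2 values.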
